A study of Gallus gallus with 20 samples.

Results

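The 9 affected cultures of muscle satellite cells (MuSCs) in this series were ordered by a proliferation score, out of 20 libraries in all. The sets compared were chosen by this score, the mean of log2(CPM + 1) of MCM5, CDT1, TOP2A and TTK in a library, where CPM is the count scaled to the library total. The 4 highest scores belonged to A73, A76, A79 and A76B, and these are called the high-scoring libraries. The 4 lowest belonged to A4, A85, A16B and A72, the low-scoring libraries, and A16 lay between the 2 sets and was left out of them. Values of several libraries are given in that order throughout.

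The study cultured primary MuSCs (labelled skeletal myoblasts) from the breast muscle (pectoralis major) of male Ross-308 broilers aged 36 days, and sequenced poly(A) RNA from cells that were proliferating. Affected birds had wooden breast, a myopathy in which the breast fillet is hardened and fibrotic, and in non-affected birds the signs of it were fewer. There were 9 affected libraries and 11 non-affected libraries. The latter served as a second set in which the relation of other genes to the score could be tested. The study's methods leave out some non-affected samples as outliers and count its affected cultures differently, but the labels do not say which libraries these are. All 20 are used here. The cells received no treatment other than growth medium, were freed of fast-adhering cells by preplating, and were at the third, the fourth or the fifth passage, with the passage of each library not given by the labels. Part of the fillets came from an abattoir. A culture of a few passages holds only those cells that attached and divided.

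MuSCs lie quiescent in muscle until injury or growth activates them, and they then divide before they differentiate or return to rest. Each division begins with the licensing of replication origins, at which CDT1 and CDC6 load the MCM2 to MCM7 helicase (MCM5 is one subunit). E2F transcription factors then turn on the genes of DNA synthesis, and FOXM1 turns on those of mitosis. TOP2A untangles the copied chromosomes, and TTK is a kinase of the checkpoint that holds mitosis until every chromosome is attached to the spindle. CDK inhibitors such as CDKN1A (p21) oppose these steps. Such genes are read from RNA here, so a smaller share of dividing cells and less RNA of these genes per cell cannot be told apart.

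The score spanned 6.81 in A73 and 3.60 in A72. It was 6.46 in A76, 5.24 in A79 and 5.04 in A76B, the last library inside the high-scoring set. The library between the sets, A16, scored 4.86, and A4, the first of the low-scoring set, scored 4.67. A85 followed at 4.40 and A16B at 3.78. The step between A76 and A79 was therefore far larger than the step of either set to A16. The 11 non-affected libraries scored 5.41 to 6.95 (median 5.85), so that 7 of the 9 affected libraries lay below the lowest non-affected one. A73 and A76 lay within the non-affected range.

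The genes of the score fell along the order at different rates. MCM5 (chromosome 1, bases 52136261 to 52144503 of GRCg7b) had 124.7, 88.8, 32.1 and 32 CPM in the high-scoring libraries, against 31, 25.9, 14.8 and 13.9 CPM in the low-scoring ones. CDT1 (chromosome 11, bases 18105653 to 18109425) had 53, 38.6, 16.7 and 14.6 CPM in the high-scoring libraries, against 15, 12.9, 10.7 and 9.34 CPM in the low-scoring ones. CDT1 was the 1 gene of the 4 whose sets overlapped at this scaling, since A4 exceeded A76B. With the TMM factors used below for other genes, CDT1 did not overlap, at 15.7 CPM in A76B and 15.1 CPM in A4. TOP2A (chromosome 27, bases 4414572 to 4432265) had 365, 320 and 140 CPM in A73, A76 and A79 and 106 CPM in A76B, against 61.2, 50.2, 27.7 and 24.3 CPM in the low-scoring libraries. TTK (chromosome 3, bases 78897877 to 78930670) had 62.9, 52.4, 23.7 and 20.2 CPM in the high-scoring libraries, against 12.1, 9.48, 5.65 and 4.48 CPM in the low-scoring ones. In A16 both mitotic genes lay between the sets, at 89.2 CPM for TOP2A and 17.3 CPM for TTK. These values set the order and are given as a description. A score from 83 S phase and G2/M genes other than these 4 put the 9 libraries into the same 2 sets. On that score A76B, at 4.520, was barely above A16, at 4.515.

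**Figure D1:**
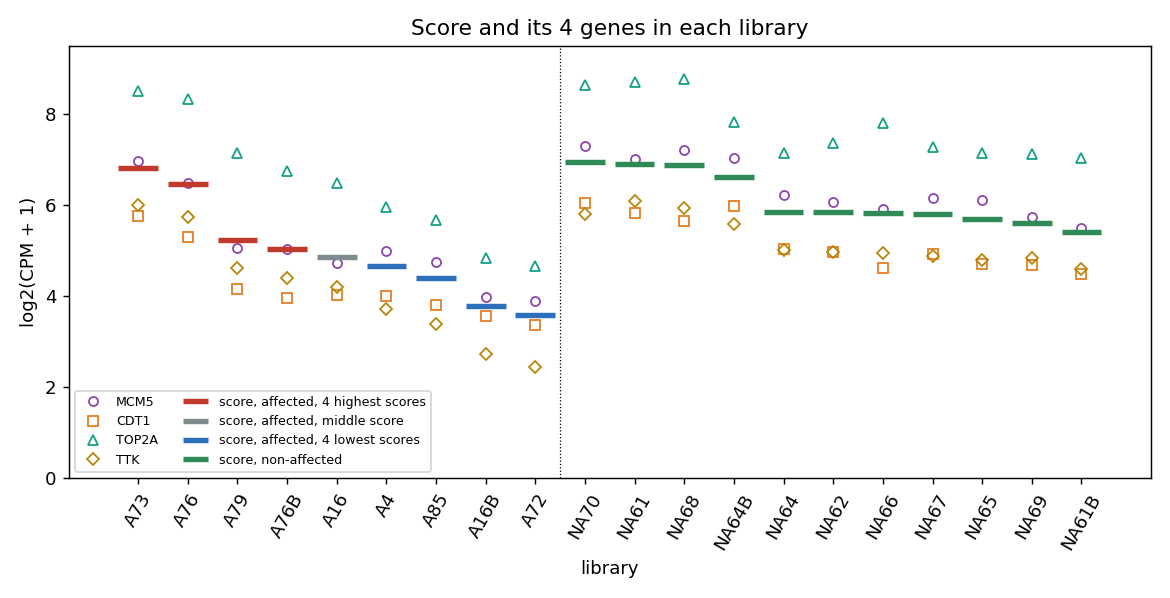
Score (bar) and log2(CPM + 1) of its 4 genes (symbols) in each library, with affected libraries left of the dotted line and each group ordered by score. The affected scores run over 3.60 to 6.81, and the non-affected scores fall into 4 libraries at 6.61 to 6.95 and 7 at 5.41 to 5.86.

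Several features of the libraries stand beside the results. Affected libraries held 15632100 to 26541200 estimated counts and non-affected libraries 15425100 to 28113800. The high-scoring libraries lay within 17062200 to 18702100, and the deepest library of the affected group, A16B, was among the low-scoring. A76 and A76B share a bird number and were both high-scoring, at scores 1.43 apart. A16 and A16B share another, with scores 1.08 apart. The labels do not say what the suffix B means. Log2 levels of the partners correlated across 11496 genes at r = 0.97 for A16 and A16B and 0.95 for A76 and A76B. Of the 7 other affected libraries, 2 exceeded this last value against A76 and 3 against A76B. Among non-affected libraries, NA61 and NA61B correlated at 0.95 and NA64 and NA64B at 0.91. Against NA64, 8 of 9 others exceeded this value, while NA64B correlated with the others at 0.83 to 0.90. The partners were not copies of 1 library and all were kept, but the 9 affected libraries come from 7 bird numbers. HINTW, a gene of the W chromosome that male birds lack, had 876 counts in A76 and at most 9 in every other affected library. A76B, with the same bird number as A76, had 0 counts, so the pair differs in W chromosome reads. Whether the 2 libraries came from 1 bird was not tested. In 9 of the 11 non-affected libraries HINTW had 1316 to 5701 counts, which goes against the label male. NA61 and NA61B had 0 counts. Most affected libraries thus differ from most non-affected ones in W chromosome reads as well. Where affected libraries are set against the non-affected range, these differences cannot be told apart, as for LMNB1 and MEGF10, which lie on chromosome Z. PAX7, which marks satellite cells, was present in every library at 90.1, 68.4, 70.1 and 34.5 CPM in the high-scoring libraries, against 78, 129.5, 64 and 105 CPM in the low-scoring ones.

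Since the score chose the 2 sets, the contrast between them is described without a test. Levels of genes other than the 4 of the score are CPM with TMM factors over all 20 libraries. A gene was counted as higher or lower where the 4 high-scoring and the 4 low-scoring libraries did not overlap and the fitted fold was 2 or more. Of 14440 genes fitted, 375 were counted as higher (2.6%) and 442 as lower (3.06%). At any fold, 1595 genes (11%) were above and 1222 (8.46%) below without overlap. The count of lower genes rested on single libraries more than the other, and it was 735 without A76B, 709 without A79 and 675 without A4. Sets of fewer libraries overlap less often, but the cause of these changes was not tested. Without A79 and A76B together the counts were 888 higher and 1466 lower, and without A73 and A76 they were 437 and 578. Of the higher genes, 108 were in the lists of licensing, DNA synthesis, E2F, mitotic, condensation, cyclin and DNA repair genes, and of the lower genes 0 were. The list of CDK inhibitors, not among these, held 4 of the lower genes. The share of all genes fitted that lie in these lists was not computed. The order was set by 4 division genes, so this split follows in part from the rule. The shares of 2.6% and 3.06% over all genes are the background for each list count below that uses both sets of 4 libraries. They do not hold for list counts with libraries left out, where the counts over all genes differ. The median fold over all genes was 0.03 on the log2 scale. Correlations with the score over the 9 libraries are a description too, since the libraries share the order, and r was given again over the 7 libraries left when A73 and A76, the farthest from the median score, were left out.

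Origin licensing genes were higher in the high-scoring libraries, with 11 of 22 members counted as higher, 0 as lower and a median log2 fold of 1.18. CDC6, the loader that acts with CDT1, was at 23.8, 21, 9.60 and 9.27 CPM in the high-scoring libraries, against 6.26, 3.79, 3.19 and 2.88 CPM in the low-scoring ones. Its sets did not overlap, and it followed the score in rank across all 9 libraries (rho = 1, r = 0.99, and 0.96 over 7). CDC7, the kinase that fires licensed origins, was at 15.2, 11.9, 4.17 and 2.88 CPM in the high-scoring libraries, against 2.44, 1.92, 0.998 and 0.983 CPM in the low-scoring ones, a log2 fold of 2.45. GINS2, a subunit of the active helicase, had a log2 fold of 2.45.

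The MCM helicase itself was graded less evenly. MCM2 was at 97.1, 73.5, 28 and 21.5 CPM in the high-scoring libraries, against 24.2, 31.3, 20.1 and 16.8 CPM in the low-scoring ones. A73 and A76 were far above the rest, while A79 and A76B lay among the low-scoring libraries, and r was 0.91 over 9 libraries and 0.57 over 7. MCM3, another subunit, was at 148, 112, 81.9 and 49.2 CPM in the high-scoring libraries, against 88.9, 65.4, 137 and 86.9 CPM in the low-scoring ones. It overlapped widely, with A16B close to A73 (log2 fold 0.07, r = 0.31, -0.56 over 7). GMNN, which encodes geminin, the inhibitor of CDT1, was at 53.6, 58.8, 34 and 35.8 CPM in the high-scoring libraries, against 32.9, 29.4, 37.1 and 32.6 CPM in the low-scoring ones, also overlapping. When A73 and A76 were left out, 6 licensing genes were counted as higher and the median log2 fold was 0.38.

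Genes of DNA synthesis and nucleotide supply had 14 of 33 members counted as higher and 0 as lower, with a median log2 fold of 1.25. RRM2, the subunit of ribonucleotide reductase that limits the making of deoxynucleotides, was at 228, 207, 65.8 and 59.2 CPM in the high-scoring libraries, against 36.7, 21.3, 11 and 11.6 CPM in the low-scoring ones. The log2 fold was 2.82 and the sets were far apart. TK1, thymidine kinase, was at 181, 141, 61.4 and 50.4 CPM in the high-scoring libraries, against 42, 35.2, 18.9 and 19.3 CPM in the low-scoring ones, and r was 0.998 over 9 libraries and 0.99 over 7. TYMS, which makes thymidylate, had a log2 fold of 1.99 with A76B just above A85. PCNA, the sliding clamp of the polymerases, was at 192, 136, 99.2 and 65.2 CPM in the high-scoring libraries, against 67.5, 60.3, 86.9 and 67.2 CPM in the low-scoring ones. The sets overlapped for PCNA, and its r of 0.81 was 0.30 over 7 libraries. Without A73 and A76 this list had 3 higher genes and a median of 0.40, so that most of its count rested on those libraries.

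The E2F factors and S phase regulators had 12 of 29 members counted as higher, 0 as lower and a median log2 fold of 1.06. E2F2, an activator, was at 18.7, 13.3, 6.40 and 5.40 CPM in the high-scoring libraries, against 3.57, 2.65, 1.31 and 0.590 CPM in the low-scoring ones, and it kept the order of the score in all 9 libraries (rho = 1). E2F8, a repressor that is itself an E2F target, had a log2 fold of 1.66. E2F1 was at 107, 61.4, 33.6 and 40.9 CPM in the high-scoring libraries, against 34.4, 25.1, 22.8 and 28 CPM in the low-scoring ones, and A79 lay below A4. FOXM1, the factor of mitotic genes, was at 25.7, 28.8, 12.7 and 11 CPM in the high-scoring libraries, against 7.14, 5.35, 3.88 and 2.82 CPM in the low-scoring ones. Its log2 fold was 2.05 and r over 7 libraries was 0.99. UHRF1, which carries DNA methylation to the new strand, was at 140.4, 117, 46.4 and 37.7 CPM in the high-scoring libraries, against 22.2, 20.7, 12.9 and 11.9 CPM in the low-scoring ones, with rho = 1. Without A73 and A76 the list had 4 higher genes.

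Mitotic spindle and kinetochore genes were the list with the most members counted, 41 of 44 higher and 0 lower, with a median log2 fold of 2.32. The exceptions were BUB3, TACC3 and CKAP5, named after their values were seen. PLK1, a kinase that drives entry into and passage through mitosis, was at 195, 128, 60.8 and 46.7 CPM in the high-scoring libraries, against 25.9, 16.7, 10.1 and 9.51 CPM in the low-scoring ones. BUB1, a kinase of the spindle checkpoint, was at 70.7, 52.3, 29.2 and 22.3 CPM in the high-scoring libraries, against 11.5, 7.84, 3.19 and 4.72 CPM in the low-scoring ones. KIF11, the motor that separates the spindle poles, was at 76.3, 69.9, 31.7 and 21.2 CPM in the high-scoring libraries, against 15, 8.41, 5.41 and 5.64 CPM in the low-scoring ones. In each of these 3 genes every high-scoring library exceeded every low-scoring one, with log2 folds of 2.81, 2.71 and 2.56. CENPI, a kinetochore protein, was at 53, 42.4, 20.3 and 16.3 CPM in the high-scoring libraries, against 9.21, 4.57, 3.11 and 3.93 CPM in the low-scoring ones, and BIRC5, the survivin subunit of the chromosomal passenger complex, had a log2 fold of 2.44. AURKA, the kinase of the spindle poles, had one of 1.90.

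The mitotic genes were also graded below the top of the order. Without A73 and A76, 39 of 44 were still counted as higher for A79 and A76B over the low-scoring libraries, beside 437 genes in all. Their median log2 fold was 1.46. The medians of the licensing, synthesis and E2F lists in the same contrast were 0.38, 0.40 and 0.43. With A73 and A76 as the only high-scoring libraries, 41 mitotic genes were counted, beside 888 higher genes in all, and the median was 2.82. Without A76, the affected library with W chromosome reads, 41 of 44 were counted, beside 363 higher genes in all, and the median was 2.18. By library total, the score gene TOP2A was at 140 and 106 CPM in A79 and A76B against 61.2 CPM in A4. TTK was at 23.7 and 20.2 CPM in them against 12.1 CPM in A4. MCM5 was close, at 32.1 and 32 CPM against 31 CPM, and so was CDT1. The difference between lists can therefore follow in part from the score genes, and it was not tested.

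Chromosome condensation and nuclear lamina genes had 12 of 23 members counted as higher and 0 as lower, with a median log2 fold of 1.12. SMC2, a core subunit of condensin, was at 334, 203, 105 and 89.5 CPM in the high-scoring libraries, against 48.6, 37, 19.1 and 15.7 CPM in the low-scoring ones. It kept the order of the score in all 9 libraries (rho = 1). NCAPG and NCAPG2, the subunits particular to condensin I and condensin II, had log2 folds of 2.71 and 2.54. LMNB1, the lamin that lines the nuclear envelope and is known to be lost in senescent cells, was at 75, 53, 31.2 and 33.3 CPM in the high-scoring libraries, against 13.9, 10.7, 10.4 and 7.08 CPM in the low-scoring ones. Its low-scoring libraries lay below the non-affected range of 24 to 87.6 CPM (median 34.8). LMNB2 was at 310.1, 276, 174 and 124 CPM in the high-scoring libraries, against 82, 81.9, 82.5 and 57.9 CPM in the low-scoring ones. HMGB2, a chromatin protein, had a log2 fold of 2.02. Without A73 and A76 the list had 6 higher genes.

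Among cyclins and CDKs, 7 of 15 members fitted were counted as higher (CCNA2, CCNB3, CCNE2, CCNF, CDK1, CDK2 and CKS1B) and 0 as lower, and the D-type cyclins were not among them. CDK1, the mitotic kinase, was at 219, 129, 62.9 and 56.8 CPM in the high-scoring libraries, against 29.7, 22.1, 13 and 12.5 CPM in the low-scoring ones. CCNA2, cyclin A2, was at 210.1, 147, 68.5 and 51.2 CPM in the high-scoring libraries, against 29.8, 27, 16.9 and 19.3 CPM in the low-scoring ones, a log2 fold of 2.38. CCND1, cyclin D1, which answers growth factors in G1, was at 107, 103, 88.2 and 93.8 CPM in the high-scoring libraries, against 83.5, 91, 88.1 and 89.1 CPM in the low-scoring ones. Its log2 fold was 0.18 and A79 lay below A85. CCND2 was at 48.1, 73.9, 79.2 and 79.3 CPM in the high-scoring libraries, against 82.2, 74, 74.9 and 82.7 CPM in the low-scoring ones, with A73 apart from the rest (log2 fold -0.14). CCNE1 and CCNE2, the cyclins of the G1/S step, parted, since CCNE1 was at 12.6, 9.42, 8.52 and 8.84 CPM in the high-scoring libraries, against 8.20, 11.8, 7.41 and 11.4 CPM in the low-scoring ones. CCNE2 was at 11.5, 9.05, 3.37 and 1.96 CPM in the high-scoring libraries, against 1.75, 1.82, 1.11 and 0.524 CPM in the low-scoring ones, with log2 folds of 0.04 for CCNE1 and 2.32 for CCNE2.

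DNA repair genes had 11 of 31 members counted as higher, 0 as lower and a median log2 fold of 0.94. EXO1, an exonuclease of mismatch repair and recombination, was at 25.1, 21.1, 9.43 and 5.71 CPM in the high-scoring libraries, against 2.51, 3.27, 1.57 and 1.25 CPM in the low-scoring ones. BRCA1, of homologous recombination, had a log2 fold of 2.33. Ribosome biogenesis genes moved less. None of 27 was counted in either direction, although 25 had a fold above 0 and the median log2 fold was 0.53. LYAR, a nucleolar protein, was at 72.6, 58.8, 38.5 and 34.8 CPM in the high-scoring libraries, against 26.2, 30.00, 23.7 and 27.1 CPM in the low-scoring ones, without overlap and at a log2 fold of 0.96.

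The list of CDK inhibitors and other brakes of the cell cycle also holds genes that are not brakes, such as MDM2. It had 4 of 28 members counted as lower in the high-scoring libraries and 0 as higher, with a median log2 fold of -0.26. CDKN1A (chromosome 26, bases 1629435 to 1638659) was at 87.8, 199, 288 and 502 CPM in the high-scoring libraries, against 609, 562, 619.9 and 621 CPM in the low-scoring ones, and at 354 CPM in A16. It averaged 269 ± 176 CPM in the high-scoring libraries and 603 ± 27.7 CPM in the low-scoring ones (SD, n = 4 libraries each). The low-scoring libraries were alike, while the high-scoring ones, from 3 bird numbers, differed widely among themselves. The rank correlation with the score was -0.97 (r = -0.92, -0.74 over 7). In non-affected libraries it lay at 70.9 to 285 CPM (median 171), and 7 of the 9 affected libraries lay above all of these. CDKN1B (p27) was at 61.6, 52.9, 94.1 and 92.5 CPM in the high-scoring libraries, against 123, 191, 226 and 156 CPM in the low-scoring ones, also without overlap (log2 fold -1.19). A further member counted as lower was GADD45G, a stress-induced gene, named after its values were seen. Without A73 and A76 only 1 member was counted as lower, and 1 as higher.

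Other genes of this list were counted in neither direction. MDM2, a ubiquitin ligase, was at 287, 449.7, 623 and 676 CPM in the high-scoring libraries, against 499, 727, 879 and 425 CPM in the low-scoring ones. The sets overlapped and r was -0.62 over 9 libraries and 0.06 over 7. Yet 8 of the 9 affected libraries exceeded the non-affected range of 126 to 302 CPM (median 172), and A73 alone fell within it. CCNG1, cyclin G1, was at 237, 360.0, 378 and 441 CPM in the high-scoring libraries, against 516, 488, 391 and 423 CPM in the low-scoring ones, and 7 affected libraries exceeded the highest non-affected one. CDKN2A was at 307, 384, 568 and 891 CPM in the high-scoring libraries, against 733, 475, 307 and 472 CPM in the low-scoring ones. CDKN2B was at 91.8, 59, 122 and 92.7 CPM in the high-scoring libraries, against 58.9, 319, 202 and 449.8 CPM in the low-scoring ones. Both genes lie in the INK4 locus, which is known for its rise in senescent mammalian cells, and both overlapped between the sets. CDKN2C, which belongs to the INK4 family, had its highest levels in A73 and A76, at 57.6, 42.3, 27.4 and 24.5 CPM in the high-scoring libraries, against 26.6, 18.9, 15.3 and 22 CPM in the low-scoring ones.

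**Figure D2:**
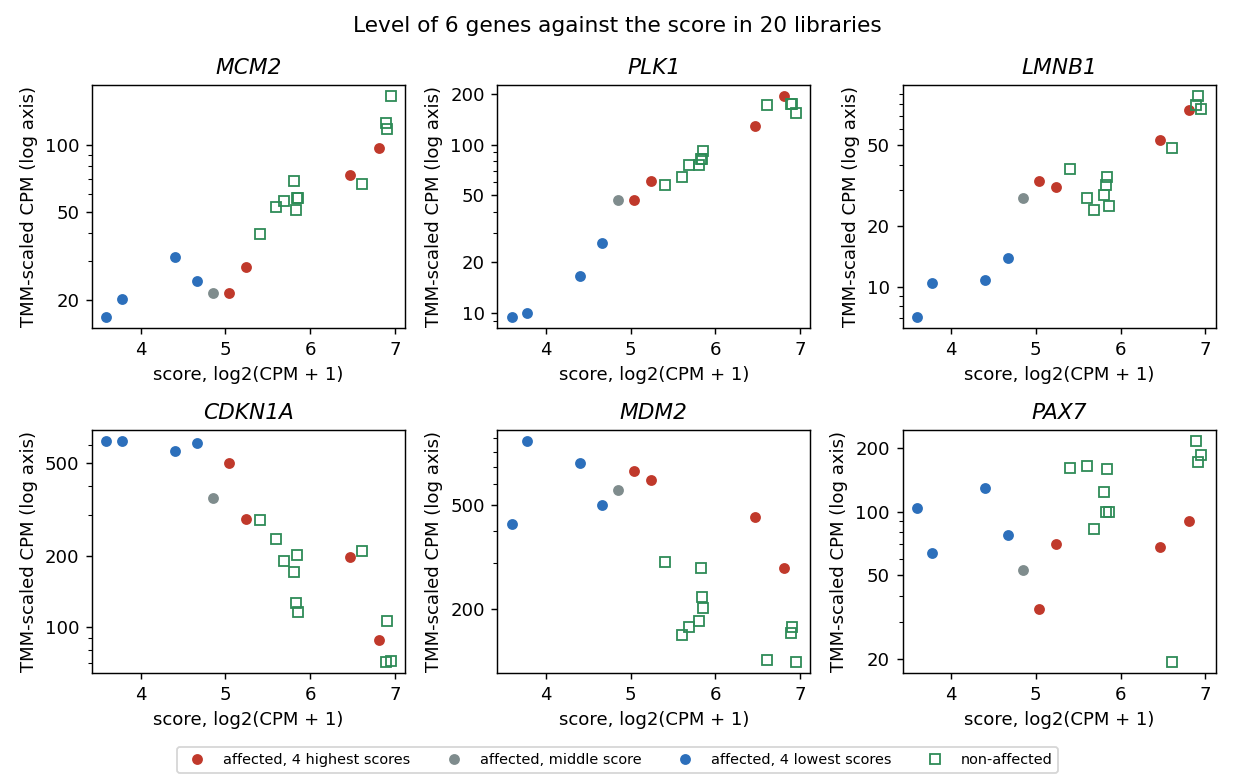
Level in TMM-scaled CPM (log axis) of 6 genes against the score in 20 libraries, with high-scoring affected libraries in red, A16 in grey, low-scoring affected libraries in blue and non-affected libraries as open green squares. MCM2, PLK1 and LMNB1 are highest and CDKN1A is lowest at high scores, while MDM2 is above the non-affected range in 8 of 9 affected libraries and overlaps between the affected sets.

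The largest folds among genes in no list were in part those of other division genes. Of the 8 named genes that were higher, CEP55 acts in the final cut between daughter cells, CENPW is a kinetochore protein, TRAIP is a ubiquitin ligase of stalled replication forks and CDCA3 is a trigger of mitotic entry. Their log2 folds were 2.86, 2.71, 2.72 and 2.72, and CEP55 kept the order of the score in all 9 libraries. The gene listed as UBE2U, a ubiquitin-conjugating enzyme, had a log2 fold of 2.68. The remaining 3 were of other kinds. FSCN1, which bundles actin, was at 8.25, 19.8, 8.92 and 0.736 CPM in the high-scoring libraries, against 0.689, 0.675, 0.422 and 0.590 CPM in the low-scoring ones, so that A76B was close to the low-scoring libraries (log2 fold 4.02, and 3.33 without A76). KRT14, a keratin, was at 63.6, 76, 38 and 48.7 CPM in the high-scoring libraries, against 7.26, 2.08, 16 and 3.15 CPM in the low-scoring ones (log2 fold 2.99, and 3.77 without A16B). G0S2, an inhibitor of lipolysis, was at 63.8, 190.5, 163 and 34.2 CPM in the high-scoring libraries, against 19.7, 14, 23.7 and 10.6 CPM in the low-scoring ones.

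The named genes that were lower had log2 folds of -4.42 to -3.25, and none is known as a division gene. CILP, a secreted matrix protein of cartilage and fibrotic tissue, was at 6.16, 2.51, 26.8 and 119 CPM in the high-scoring libraries, against 187, 381, 623 and 588 CPM in the low-scoring ones. Its level was higher the lower the score, with few exceptions (rho = -0.97), and its log2 fold was -3.52. PLA2G15, the lysosomal phospholipase A2, was at 61.6, 26, 299 and 90.1 CPM in the high-scoring libraries, against 505, 1053, 1734 and 1831 CPM in the low-scoring ones. ETNPPL, which breaks down phosphoethanolamine, was at 2.53, 0.419, 1.31 and 10.9 CPM in the high-scoring libraries, against 24.4, 63.2, 137 and 98.2 CPM in the low-scoring ones. MEGF10, a receptor that in mice acts in satellite cells, was at 5.30, 1.52, 5.09 and 2.88 CPM in the high-scoring libraries, against 10.2, 49.5, 61.4 and 34.5 CPM in the low-scoring ones. In ETNPPL, 5 affected libraries exceeded the non-affected range of 1.02 to 19 CPM (median 3.37), and in MEGF10 4 did, with a range of 0.413 to 17.6 CPM (median 5.03). CLSTN2 was at 0.554, 0.628, 1.09 and 1.90 CPM in the high-scoring libraries, against 12.5, 26.9, 3.61 and 4.85 CPM in the low-scoring ones. TTPA was at 0.801, 0.576, 0.629 and 1.1 CPM in the high-scoring libraries, against 2.32, 2.75, 24.9 and 1.84 CPM in the low-scoring ones. Both rested on a single library in part, since the log2 fold of -3.50 for CLSTN2 was -2.74 without A85 and that of -3.34 for TTPA was -1.57 without A16B. GCNT2 was at 0.185, 0.105, 2.92 and 1.35 CPM in the high-scoring libraries, against 6.83, 3.48, 25.6 and 8.46 CPM in the low-scoring ones, and its log2 fold of -3.26 was -2.46 without A16B and -4.36 without A79. MYO3B was at 0.185, 0.209, 0.572 and 1.53 CPM in the high-scoring libraries, against 2.13, 6.38, 4.76 and 10.9 CPM in the low-scoring ones, with a log2 fold of -3.25, and of -4.19 without A76B. Leaving out A76B also moved the log2 folds of CILP and ETNPPL, to -5.23 and -5.84, and leaving out A79 moved that of PLA2G15 to -4.44.

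Matrix genes were counted in both directions, 6 of 35 higher and 4 lower. COL1A2, a chain of type I collagen, was at 1581, 1891, 1694 and 2363 CPM in the high-scoring libraries, against 709, 401, 516 and 256 CPM in the low-scoring ones. COL1A1, the other chain, was at 8896, 12460.4, 11114 and 13822 CPM in the high-scoring libraries, against 3924, 3101, 5799.7 and 2652 CPM in the low-scoring ones. Neither overlapped (log2 folds 2.02 and 1.60). SPON2, a secreted matrix protein, was at 6.10, 2.20, 3.20 and 5.77 CPM in the high-scoring libraries, against 35.3, 137, 93 and 215 CPM in the low-scoring ones, and all low-scoring libraries exceeded the non-affected range of 0 to 7.49 CPM. LAMA2, the laminin chain of the muscle basement membrane, was at 9.42, 3.72, 10.1 and 12.6 CPM in the high-scoring libraries, against 16.3, 31.5, 50.2 and 25.8 CPM in the low-scoring ones. LAMB1 was at 16.1, 9.94, 13.7 and 7.43 CPM in the high-scoring libraries, against 3.69, 9.76, 8.02 and 4.20 CPM in the low-scoring ones, overlapping. Of the syndecans and glypicans, the heparan sulphate proteoglycans of the cell surface, 0 of 10 were counted in either direction. SDC4 was at 325, 194, 274 and 241 CPM in the high-scoring libraries, against 191, 205, 330.1 and 246 CPM in the low-scoring ones. SDC1 was at 123, 145, 154 and 131 CPM in the high-scoring libraries, against 171, 211, 257 and 129 CPM in the low-scoring ones. Both overlapped. SDC3 was low throughout, at 0.493, 1.20, 1.31 and 1.78 CPM in the high-scoring libraries, against 0.501, 1.56, 2.34 and 1.31 CPM in the low-scoring ones. SDC2 was at 1134, 1348, 1269.8 and 1319 CPM in the high-scoring libraries, against 1108, 706, 929 and 691 CPM in the low-scoring ones, above without overlap at a log2 fold of 0.58.

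Type I collagen is also a marker of fibroblasts. The 16 fibroblast and fibro-adipogenic markers listed summed to 12450, 16241, 14621 and 18084 CPM in the high-scoring libraries, against 8024, 6043, 9645 and 5310.5 CPM in the low-scoring ones, without overlap, and to 7110 to 21259 CPM in non-affected libraries. COL1A1, as given above, was most of the sum in each high-scoring library. In A4 it was 3924 of 8024 CPM and in A72 2652 of 5310.5 CPM. Of 11 fitted, the median log2 fold was 0.30 with 4 below 0, and the median was -0.02 without A73 and A76 and -0.03 without A79 and A76B. COL1A1 was counted as higher and PDGFRA, the receptor that defines fibro-adipogenic progenitors, as lower. PDGFRA was at 1.66, 1.88, 0.915 and 0.123 CPM in the high-scoring libraries, against 4.63, 7.99, 6.56 and 9.70 CPM in the low-scoring ones. The part of fibroblasts in the results was not tested.

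Lysosome genes had 3 of 33 members counted as lower and 0 as higher, with a median log2 fold of -0.36 and 29 members below 0. GLA, alpha-galactosidase, was at 26.6, 25.9, 47.5 and 50.1 CPM in the high-scoring libraries, against 89.3, 111, 125 and 136 CPM in the low-scoring ones. CTSK, a cathepsin that cleaves collagen, was at 342, 162, 469 and 354 CPM in the high-scoring libraries, against 698, 593, 777 and 909.9 CPM in the low-scoring ones. SMPD1, acid sphingomyelinase, was at 148, 126, 320.5 and 322 CPM in the high-scoring libraries, against 470.2, 382, 522 and 517 CPM in the low-scoring ones. The sets did not overlap in these 3 genes, while the summed level of the list did, at 13070.0 to 29280.1 CPM in the high-scoring libraries against 22609.6 to 42317 CPM in the low-scoring ones. Without A73 and A76, 1 member was counted as lower and 1 as higher.

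Secreted genes tied to senescence in mammalian cells had 2 of 24 members counted in each direction, beside 2.6% higher and 3.06% lower over all genes. MMP10 was at 7.95, 2.09, 11.7 and 14 CPM in the high-scoring libraries, against 45.5, 36.3, 201 and 65.9 CPM in the low-scoring ones (log2 fold -3.27, and -2.47 without A16B). IGFBP7, a binding protein of insulin-like growth factors, was at 81.5, 19.2, 43.2 and 58 CPM in the high-scoring libraries, against 123, 144, 239.9 and 281 CPM in the low-scoring ones. Both were counted as lower. IGFBP5, of the same family, was counted as higher, at 119.9, 141, 154 and 95.2 CPM in the high-scoring libraries, against 88.6, 55.3, 43.3 and 60.6 CPM in the low-scoring ones. The other member counted as higher was IL6, named after its values were seen. Glycolysis genes had 0 of 22 counted as higher and 2 as lower, while 18 had a fold above 0 and the median log2 fold was 0.26. PDK4, the kinase that closes off pyruvate dehydrogenase, was at 6.47, 2.98, 15.9 and 15.1 CPM in the high-scoring libraries, against 65, 42.8, 68.1 and 45.3 CPM in the low-scoring ones. LDHA was at 2544, 7309, 5565 and 8013 CPM in the high-scoring libraries, against 2876, 2913, 1024 and 1586 CPM in the low-scoring ones, overlapping, and its 3 highest levels were in A76, A79 and A76B. Feedback genes of growth factor signalling had 0 of 22 counted, and DUSP6, a phosphatase of ERK, was below without overlap at a log2 fold of -0.91.

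Over all genes, 2.6% were counted as higher and 3.06% as lower. The satellite cell and myogenic factors were near these shares. Of 23 fitted, 0 were counted as higher and 1 as lower, with a median log2 fold of -0.38. PAX3, which marks muscle progenitors, was the one, at 15.2, 11.9, 9.55 and 11.8 CPM in the high-scoring libraries, against 16.2, 31.9, 20.5 and 42.7 CPM in the low-scoring ones. PAX7 overlapped, as given above (log2 fold -0.49). MYF5, a factor of committed myoblasts, was at 23.2, 9.0, 4.57 and 3.13 CPM in the high-scoring libraries, against 3.57, 33.4, 4.18 and 15.7 CPM in the low-scoring ones. MYOD1 was at 1.29, 1.41, 2.63 and 0.859 CPM in the high-scoring libraries, against 0.313, 9.86, 0.345 and 0.918 CPM in the low-scoring ones. A85 was the library with the most MYF5 and MYOD1 although it was low-scoring. Of the muscle structure genes, 2 of 28 were counted as lower and 0 as higher, and the median log2 fold was 0.04. MYOM1, a protein of the sarcomere M band, was at 3.63, 3.77, 10.7 and 13.9 CPM in the high-scoring libraries, against 17.6, 55.5, 35.9 and 38.9 CPM in the low-scoring ones, graded across the order (rho = -0.95). CACNA1S, the calcium channel of the muscle membrane, had a log2 fold of -2.07 at levels of at most 3.34 CPM.

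Macrophage markers set A79 and A76B apart from A73 and A76 rather than the high-scoring from the low-scoring libraries. The 17 markers listed summed to 70.2, 81.0, 267 and 189 CPM in the high-scoring libraries, against 101, 97.4, 144 and 134 CPM in the low-scoring ones, and to 23.1 to 104 CPM in non-affected libraries. Of 14 fitted, 0 were counted in either direction. CSF1R, the receptor that defines macrophages, was at 0.185, 0.994, 21.3 and 9.57 CPM in the high-scoring libraries, against 1.38, 2.96, 1.46 and 2.03 CPM in the low-scoring ones. TREM2 was at 1.48, 0.314, 11.3 and 5.95 CPM in the high-scoring libraries, against 1.69, 4.62, 8.98 and 5.31 CPM in the low-scoring ones. For A79 and A76B alone over the low-scoring libraries 7 of 15 macrophage markers were counted as higher, beside 437 genes in all. For A73 and A76 alone 5 of 14 were counted as lower, beside 1466 genes in all. Sets of 2 libraries overlap less often than sets of 4. The part of macrophages in the results was not tested. Smooth muscle and pericyte markers had 1 of 8 counted as higher, glial and neural markers 1 of 7 as lower, and the endothelial (7), adipocyte (9) and erythrocyte and lymphocyte (1) markers fitted had 0 in either direction.

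**Figure D3:**
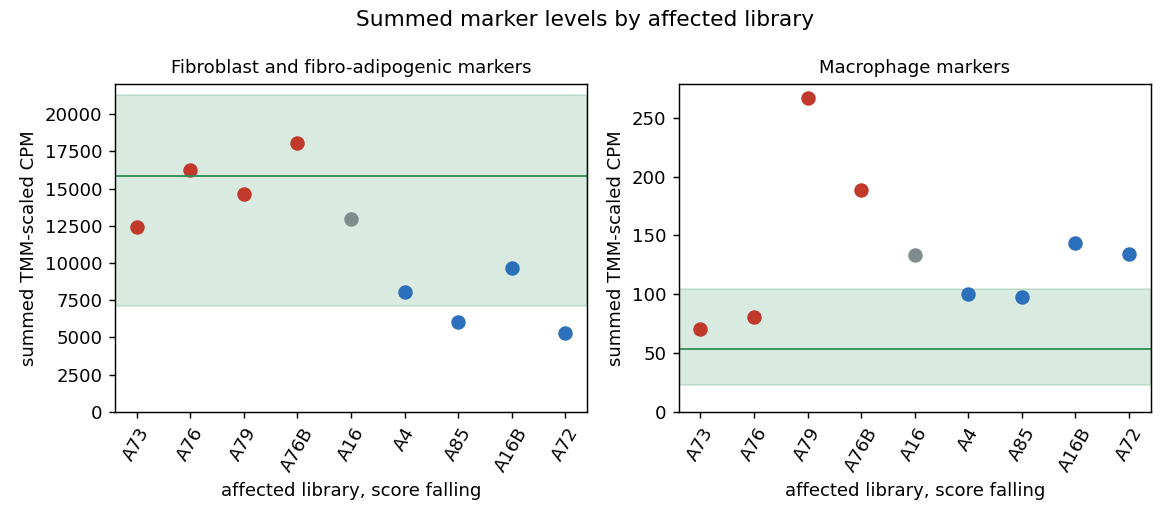
Summed TMM-scaled CPM of fibroblast and macrophage markers in each affected library, in falling order of score (red high-scoring, grey A16, blue low-scoring), with the range (band) and median (line) of 11 non-affected libraries. The fibroblast sums are 12450 CPM or more in the high-scoring libraries and at most 9645 CPM in the low-scoring ones, and the macrophage sums peak at 267 CPM in A79.

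The relation of each gene to the score was tested in the 11 non-affected libraries, which the order of the affected ones did not use. The score was measured in these same 11 libraries. Slopes of division genes that move with its 4 genes therefore follow in part from the rule. The slope was the log2 change of a gene per log2 unit of score, fitted with edgeR's quasi-likelihood test, and p-values were adjusted over all genes after Benjamini and Hochberg. Of 12394 genes outside the score, 520 had a positive slope (4.2%) and 403 a negative one (3.25%) with an adjusted p no larger than 0.05. The non-affected scores were not spread evenly but fell into 4 libraries (NA70, NA61, NA68 and NA64B) and 7 others. Among the 7 alone, 0 genes passed in either direction and 1336 of 12829 had an unadjusted p under 0.05, in the edgeR fit, the sole tool run on them. The positive count was 286 without NA68, 305 without NA70, 338 without NA69 and 943 without NA64B. The negative count was 117 without NA70, 164 without NA68, 224 without NA61, 235 without NA64, 239 without NA69, 256 without NA66, 266 without NA67 and 755 without NA64B. Without NA61 and NA61B, which share a bird number and had no W chromosome reads, the counts were 255 positive and 227 negative. Over the 11 fits that each left out 1 library, 219 of the 520 genes passed with a positive slope in all and 88 of the 403 passed with a negative one in all. The 11 libraries come from 9 bird numbers, and the p-values measure the spread between these libraries.

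The genes with the smallest p were division genes among the positive slopes. SPC25, a subunit of the kinetochore complex that holds microtubules, had a slope of 1.26 ± 0.12 (SE, n = 11 libraries, edgeR adjusted p = 0.000593). WDR76, BUB1, PLK1 and GTSE1 had slopes of 1.06 ± 0.09, 0.99 ± 0.09, 1.04 ± 0.09 and 0.97 ± 0.10. A slope of 1 means that a gene changed in step with the mean of the 4 score genes. WDR76 overlapped between the affected sets, at 43.2, 30.9, 13.3 and 15.1 CPM in the high-scoring libraries, against 15, 15.5, 8.18 and 10.5 CPM in the low-scoring ones. The negative slopes were led by ST6GALNAC6, a sialyltransferase, at -1.17 ± 0.15. Behind it were LMBRD1 and SIDT2, both proteins of the lysosome membrane, PIK3IP1, an inhibitor of PI3 kinase, and KLHL5, at -0.73 ± 0.11, -0.78 ± 0.12, -1.54 ± 0.23 and -0.60 ± 0.09. In affected libraries ST6GALNAC6 and SIDT2 were below without overlap at log2 folds of -0.78 and -0.65, which are under the fold of 2 used for a count.

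By list, the non-affected slopes had 38 of 44 mitotic genes positive and 0 negative, with a median slope of 0.89. The score is itself made of division genes, so positive slopes in the division lists follow in part from it. DNA synthesis had 23 of 33, licensing 11 of 22, E2F factors 16 of 29, condensation and lamina 15 of 23, cyclins and CDKs 7 of 15 and DNA repair 15 of 31, with 0 negative in each. Without NA61 and NA61B, 32 mitotic genes and 5 licensing genes were positive. The median slope over all genes was 0.0022. MCM2 (slope 1.03 ± 0.13, edgeR adjusted p = 0.000888), RRM2 (1.15 ± 0.16, 0.00224), CDK1 (1.03 ± 0.15, 0.00277), LMNB1 (1.03 ± 0.16, 0.00365) and LMNB2 (0.68 ± 0.10, 0.00297) all passed. MCM3 passed as well, with 0.50 ± 0.12 and an edgeR adjusted p of 0.0288, although its affected sets overlapped, and lost the call in 9 of 21 alternatives. E2F1 did not pass (0.40 ± 0.15, 0.126). Of the genes counted as higher in affected libraries, 38 of 41 mitotic genes and 7 of 7 cyclins and CDKs also had a positive slope.

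Over all genes tested in non-affected libraries, 4.2% had a positive slope and 3.25% a negative one, and the inhibitors were near these shares. CDKN1A had a slope of -0.83 ± 0.25, and its edgeR adjusted p of 0.0588 missed the threshold. MDM2 had -0.49 ± 0.17 (0.0963) and CDKN2B -2.25 ± 0.69 (0.0667). Of the list, 1 of 27 passed with a positive slope, CDKN2C at 0.76 ± 0.19, and 1 with a negative one, CDKN1C, named after its values were seen. Without NA61 and NA61B 0 of the list passed in either direction, and summed per bird number 0 were positive and 2 negative. The call of CDKN2C was lost in 12 of 21 alternatives. In limma-voom with the bird number as a block CDKN1A and CDKN2B passed, at adjusted p of 0.0421 and 0.0265 (0.0421 and 0.0287 without the block), and over the 21 alternatives they passed in 5 and 6. Lysosome genes had 5 of 33 negative and 0 positive, and SMPD1 was the 1 of these that was also counted as lower in affected libraries (slope -0.81 ± 0.17, edgeR adjusted p = 0.0186, lost in 5 of 21 alternatives). CILP (-3.28 ± 0.60, 0.00876) and PLA2G15 (-2.99 ± 0.61, 0.0147) passed with slopes steeper than those of the division genes named here. The slope of PLA2G15 turned to 3.74 among the 7 libraries alone and that of LMNB1 to -0.60, neither passing there. Matrix genes had 0 positive and 4 of 33 negative, beside 6 higher and 4 lower of 35 in affected libraries. Without NA61 and NA61B 1 matrix gene was negative, and summed per bird number 1 was negative and 1 positive. MYOD1 had a slope of 2.80 ± 0.76 that passed by little (edgeR adjusted p = 0.0458) and was lost in 16 of 21 alternatives, among them the fits without NA70 and without NA61 and NA61B. In limma-voom its adjusted p was 0.286 with the bird number as a block and 0.283 without. It was at 558 CPM in NA70 and at 1.22 to 92.7 CPM in the other non-affected libraries. Whether slopes differ between affected and non-affected libraries was not tested.

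**Figure D4:**
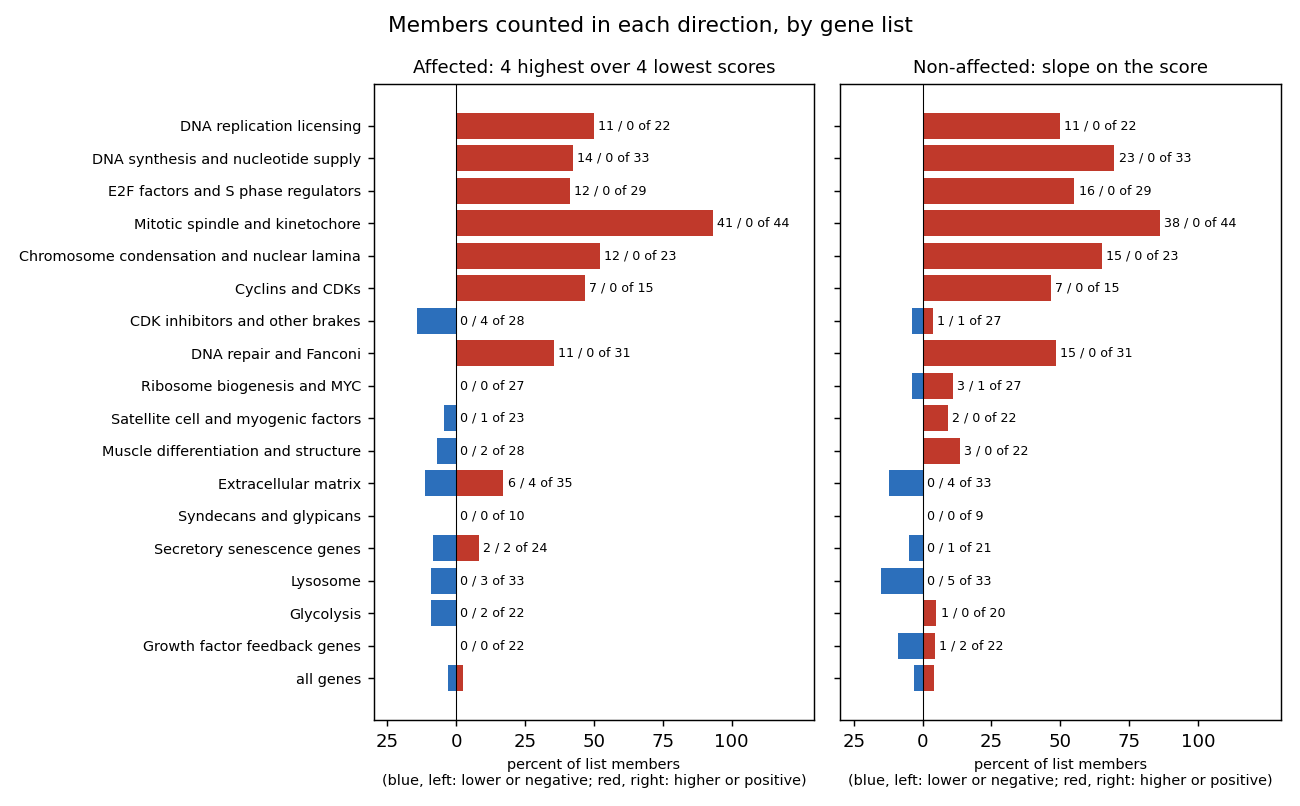
Share of members of 17 gene lists, and of all genes fitted, counted as higher (red, right) or lower (blue, left) in high-scoring over low-scoring affected libraries (left panel), and with a positive or negative slope on the score in non-affected libraries (right panel). Labels give members higher or positive / lower or negative of those fitted, and the mitotic list leads both panels with 41 of 44 and 38 of 44.

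The 2 comparisons share no library, so their calls can be set side by side. Both use the same 4 score genes, however. Division genes that move with these can recur in both, so part of the overlap follows from the score. Among 12385 genes fitted in both, 354 were counted as higher in the high-scoring affected libraries and 518 had a positive slope in non-affected ones. They shared 211 genes, which is 59.6% of the affected list and 40.7% of the non-affected list. Of all genes fitted in both, 4.18% had a positive slope. Of the 354, 0 had a negative slope past the threshold, and 324 (91.5%) had a slope above 0, against 50.3% of all genes. Of 287 genes counted as lower, 74 had a negative slope, 25.8% of the affected list and 18.4% of the 403 non-affected genes, beside 3.25% of all genes. Here 2 genes had a positive slope past the threshold, and 254 (88.5%) had a slope below 0, against 49.7% of all genes. A further 21 higher genes and 155 lower genes were too low in non-affected libraries to be tested. Across the 12385 genes, which are not independent replicates, the affected fold and the non-affected slope correlated at Pearson r = 0.51 and Spearman rho = 0.51.

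**Figure D5:**
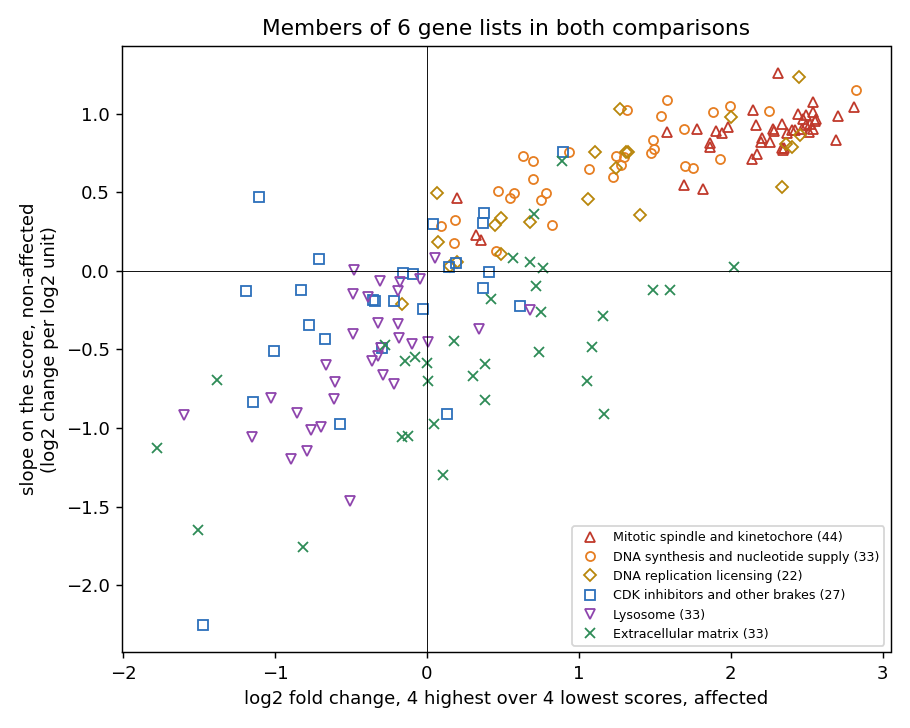
Log2 fold of high-scoring over low-scoring affected libraries (horizontal axis) against the slope on the score in non-affected libraries (vertical axis) for the members of 6 gene lists, with the number of members in the legend. Most mitotic genes lie to the right, with a median of 2.32 in affected libraries and 0.89 in non-affected ones, while matrix genes spread to both sides of 0 in affected libraries and lie mostly below 0 in non-affected ones.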

How the data were processed

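RNA-seq of 9 affected and 11 non-affected MuSC libraries was analysed, grouped by their titles. Per the submitters' processing notes and the study's methods, the authors trimmed reads with Trim Galore 0.6.7 and Cutadapt 3.4, aligned them to GRCg7b with STAR 2.7.9a and quantified them with Salmon 1.10.1. The authors deposited estimated counts per gene, neither normalized nor filtered. The annotation release is not given in the sources used here, nor is strand in the counting, so overlapping genes and close paralogs may share reads. The table listed 30108 genes, 15860 of them without a symbol, and 71.2% of values were whole. Estimated counts were rounded. Positions came from RefSeq annotation of GRCg7b, matched by symbol.

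Counts were filtered with filterByExpr, scaled by TMM and fitted with edgeR 4.0.16 in R 4.3.3. The high-scoring and low-scoring affected libraries were contrasted by the fitted log2 fold (14440 genes) without a p-value. The slope on the score in non-affected libraries was tested with edgeR's quasi-likelihood test and Benjamini-Hochberg adjustment (12394 genes), and its SE was taken as the slope divided by the square root of F, an approximation. The score used a pseudocount of 1 and the library total. No p-value is given for lists. The fits were tested on simulated counts.

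The cultures, the score genes and the 24 lists (558 of 621 genes found) were chosen with earlier results of these data known. The genes named are a fixed roster of 53 listed genes, the 8 largest folds in each direction outside the lists, the 5 smallest p in each direction in non-affected libraries (both at a mean count of 50 or more, with a symbol), and up to 3 members of each list with the largest absolute fold. Others are said to be named after their values were seen. The alternatives were DESeq2 1.42.0, limma-voom 3.58.1, other filters and scores, each library left out, libraries summed per bird number, limma-voom with the bird number as a block (duplicateCorrelation), and sets of libraries left out. The block and the fits without A73 and A76, without A79 and A76B and without NA70, NA61, NA68 and NA64B were chosen after seeing the data. No sequences are printed, and some results are not reported here. Figures were drawn with matplotlib 3.10.9.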

Additional observations from a re-analysis of the deposited data

Results flagged for a closer look

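The score and the levels of the 96 genes named, as log2(CPM + 1), were checked for a single library far from the other affected ones, by Dixon's ratio of the gap to the whole range with a critical value of 0.493 for 9 libraries. Of 97 measures, 3 passed, and chance alone passes about 1 group in 20. CCND2 was at 48.1 CPM in A73, with A76 nearest at 73.9 CPM. CCNG1 was at 237 CPM in A73, with A76 nearest at 360.0 CPM. MYOD1 was at 9.86 CPM in A85, with A79 nearest at 2.63 CPM.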

How the results depend on the processing

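Against 375 higher and 442 lower genes between the high-scoring and low-scoring affected libraries, the lower count became 719 with no filter on low counts, 713 with libraries summed per bird number and 712 without the suffix B libraries, where the higher count was 611. Without A79 and A76B they were 888 and 1466. Leaving out 1 library gave 354 to 542 higher and 481 to 735 lower genes. Other normalizations, a stricter filter and the other scores kept both counts within 1.5 times. Against 520 positive and 403 negative slopes in non-affected libraries, DESeq2 gave 954 and 985, no filter 318 and 260, libraries without NA61 and NA61B 255 and 227, and libraries without NA70, NA61, NA68 and NA64B 0 and 0. Leaving out 1 library gave 286 to 943 positive and 117 to 755 negative slopes. Limma-voom, a mean count of at least 50, the other scores and sums per bird number kept them within 1.5 times. Among the 25 genes whose slopes are printed, the slope changed sign in 2, LMNB1 (-0.60) and PLA2G15 (3.74), both without those 4 libraries. Sets of fewer libraries overlap less often, but the cause of these changes was not tested. With the bird number as a replicate block in limma-voom, where 2 of 9 non-affected bird numbers have 2 libraries (consensus correlation 0.0857), 494 slopes were positive and 446 negative. Among the printed slopes, the block gave a pass to CDKN1A and CDKN2B and took it from MYOD1, as limma-voom without the block did, and changed no other call. The sets of affected libraries were not fitted with a block. No bird number is in both sets, but A76 and A76B share one, so the 4 high-scoring libraries come from 3 bird numbers. Low-count genes limit the folds, and intervals of counting error were not computed.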
